A study of Mus musculus with 6 samples.

Results

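The 10 genes described here belong to the NRF2 and glutathione defence against oxidants and were followed across 6 libraries of mouse bone marrow-derived macrophages: Nfe2l2, Keap1, Nqo1, Srxn1, Txnrd1, Gclm, Gclc, Slc7a11, Gsr and Gpx1. They were chosen by name, with earlier results of these data known. Their values were obtained by summing the deposited transcript counts per gene symbol of the GENCODE mouse annotation. The 10 genes stood among 55263 annotated genes. All 10 passed the filter on low counts, which left 17113 genes for testing.

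The libraries came in 3 groups of 2: macrophages given lipopolysaccharide together with an agent named HACA (LPS+HACA), macrophages given lipopolysaccharide alone (LPS), and controls. Lipopolysaccharide is a component of the bacterial outer membrane that activates macrophages through the receptor TLR4. The labels state a wild type genotype for the controls and give only the treatment for the other groups. They do not spell out HACA and give neither doses nor times. The series title concerns a hyaluronic acid nanomedicine in a mouse model of psoriasis. Nothing in the labels says that replicate libraries came from separate animals or cultures, so the p-values measure the spread between these libraries, which may be technical.

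NRF2, the product of Nfe2l2, is a transcription factor whose protein is kept low by KEAP1, an adaptor that delivers it to the CUL3 ubiquitin ligase. When oxidants or electrophiles modify KEAP1, NRF2 accumulates, pairs with small MAF proteins and binds antioxidant response elements near genes for glutathione synthesis, thiol reduction and quinone detoxification. In macrophages the same genes meet the oxidants that the activated cell makes itself, and cystine import through the transporter encoded by Slc7a11 supplies the cysteine for glutathione.

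Promoter sequence from RefSeq (build GRCm38.p6), from 250 bases before to 50 bases after each annotated start, was at hand for 8 of the 10 genes; Gclc and Gsr were not among them. Each was searched on both strands for the core of an antioxidant response element, written TGACNNNGC or TGAGNNNGC. These genes had 10 annotated starts, of which 5 held a match, each in a different gene, against 27.8% of 32851 promoters of the same length. The promoters of Srxn1, Slc7a11, Gclm and Nfe2l2 are shown because they include the genes with the largest and the smallest LPS response of the 10, the gene with most matches and the regulator itself. Each is written 5′ to 3′ on its gene's own strand, with capitals marking matches to the response element core and, in Slc7a11, also to the motif TGATGNAAN.
Srxn1, chr2:152105274-152105573, plus strand: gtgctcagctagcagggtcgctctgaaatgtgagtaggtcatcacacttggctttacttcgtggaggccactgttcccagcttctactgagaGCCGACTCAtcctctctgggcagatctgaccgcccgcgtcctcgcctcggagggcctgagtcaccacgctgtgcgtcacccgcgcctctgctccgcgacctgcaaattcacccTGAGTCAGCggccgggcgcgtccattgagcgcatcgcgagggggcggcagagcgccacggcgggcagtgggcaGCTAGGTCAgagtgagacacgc
Slc7a11, chr3:50443564-50443863, minus strand: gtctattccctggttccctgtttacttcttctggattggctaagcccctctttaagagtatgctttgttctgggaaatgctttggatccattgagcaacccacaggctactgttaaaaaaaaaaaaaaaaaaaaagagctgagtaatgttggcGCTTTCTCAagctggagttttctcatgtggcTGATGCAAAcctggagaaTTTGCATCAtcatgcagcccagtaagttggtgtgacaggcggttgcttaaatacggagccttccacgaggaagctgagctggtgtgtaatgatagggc
Gclm, chr3:122245307-122245606, plus strand: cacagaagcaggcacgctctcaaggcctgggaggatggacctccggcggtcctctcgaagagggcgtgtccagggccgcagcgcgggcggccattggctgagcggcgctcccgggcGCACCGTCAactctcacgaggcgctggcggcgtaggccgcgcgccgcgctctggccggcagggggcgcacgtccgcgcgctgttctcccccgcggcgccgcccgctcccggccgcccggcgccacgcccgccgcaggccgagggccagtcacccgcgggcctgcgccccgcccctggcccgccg
Nfe2l2, chr2:75704614-75704913, minus strand: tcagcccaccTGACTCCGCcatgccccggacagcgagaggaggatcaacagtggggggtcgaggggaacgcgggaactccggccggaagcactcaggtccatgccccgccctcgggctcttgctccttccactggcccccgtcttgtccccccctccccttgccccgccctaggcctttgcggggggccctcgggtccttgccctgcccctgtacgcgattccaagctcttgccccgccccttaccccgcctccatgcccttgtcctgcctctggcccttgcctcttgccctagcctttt

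The Srxn1 promoter held 3 response element cores, TGAGTCGGC on the reverse strand, TGAGTCAGC on the forward strand and TGACCTAGC on the reverse strand, with leftmost bases at -158, -45 and 29 from the start. Srxn1 alone of the 8 genes also held the AP-1 motif TGANTCA, at -102 and at -45, where it overlaps the middle response element core; 7.81% of all promoters held that motif. Slc7a11 held the core TGAGAAAGC on the reverse strand at -97 and TGATGCAAA on each strand, at -66 and -48. TGATGNAAN is the form of the element that the stress factor ATF4 binds with its partners, it was searched after the Slc7a11 promoter had been seen, and 3.95% of promoters held it. Gclm held TGACGGTGC on the reverse strand at -134, and Nfe2l2 itself TGACTCCGC on the forward strand at -240. Of the 3 annotated Txnrd1 starts, 1 held a core, TGACAAAGC on the reverse strand at -92. These are matches of letters in short windows, and no binding was measured.

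The libraries held 12529874 to 15379496 counts. Between 24.3% and 29.2% of counts fell in genes of the annotated type misc_RNA. The TMM factors, which correct for composition, were 1.19 and 1.14 in the LPS+HACA libraries, 0.812 and 0.676 in the LPS libraries and about 1.16 in both controls. All 8 macrophage markers were detected, with summed levels of 31040 and 33650 CPM (a gene's count relative to the TMM-scaled library size) in the LPS+HACA libraries, 40500 and 49290 CPM in the LPS libraries and 40990 and 39360 CPM in the controls. Of the markers of T and NK cells, mast cells and erythrocytes, Cd3e, Nkg7, Ncr1, Mcpt4, Hba-a1 and Hbb-bs were at 0 in every library. The 1 detected of 4 T and NK cell markers reached at most 0.27 CPM. The 2 detected of 3 mast cell markers summed to at most 0.30 CPM. The 4 dendritic cell markers, all detected, summed to 22.7 and 30.8 CPM in LPS+HACA, 45.7 and 69.7 CPM in LPS, and 19.2 and 25.3 CPM in control. The 4 detected of 5 B and plasma cell markers summed to 13.7 and 8.25 CPM in LPS+HACA, 3.15 and 3.76 CPM in LPS, and 12.04 and 13.6 CPM in control. The 2 detected of 4 erythroid and megakaryocyte markers summed to 10.7 and 13.1 CPM in LPS+HACA, 21.2 and 35.7 CPM in LPS, and 11.7 and 10.9 CPM in control. Their part in the differences between groups was not tested.

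In LPS macrophages, 5 of the 10 genes rose relative to controls: the regulators Nfe2l2 and Keap1, the sulfiredoxin Srxn1, the cystine transporter Slc7a11 and the glutathione reductase Gsr. Gpx1, a glutathione peroxidase, fell, and Nqo1, Txnrd1, Gclm and Gclc did not pass the test. Of all genes tested, 15.9% were called higher and 14.3% lower (30.1% in all) at an adjusted p under 0.05 (edgeR's quasi-likelihood test, Benjamini-Hochberg adjustment over 17113 genes). DESeq2 called 8 of the 10 higher, and scaling to library totals called 3. With the replicate number as a block, 8 were called higher. The median log2 fold change was 1.56 over the 10 genes and -0.05 over all genes. Both LPS libraries lay above both controls for 8 of the 10 genes and below them for 1, where 31.4% of all genes lay above and 35.3% below. Because the 10 genes were chosen with earlier results of these data known, these shares describe the list and do not test it. In bulk RNA, fewer cells expressing a gene and less RNA per cell cannot be told apart.

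When HACA was given with LPS, only Nfe2l2 among the 10 genes passed the same test against LPS alone, and it fell. Over all genes, 7.67% were called lower and 5.74% higher in this comparison, 13.4% in all. The fitted value was negative for 9 of the 10 genes and positive for Gpx1, each against its value in LPS alone, with a median log2 fold change of -1.24 over the 10 and 0.06 over all genes. Both LPS+HACA libraries lay below both LPS libraries for 6 of the 10 genes (Nfe2l2, Keap1, Nqo1, Srxn1, Slc7a11 and Gsr) and above them for Gpx1, against 27.3% and 30.3% of all genes. This comparison and the previous one share the LPS libraries, so a gene high in those libraries moves in opposite directions in them. The count of genes called lower depended on the test. DESeq2 called 6 of the 10 (Nfe2l2, Keap1, Srxn1, Gclc, Slc7a11 and Gsr), and scaling to library totals called 0. With the replicate number as a block, whose meaning the labels do not state, the count was 7, these 6 and Txnrd1. It also depended on single libraries, with 4 called without LPS replicate 1 (Nfe2l2, Keap1, Gclc and Gsr) and 0 called without LPS+HACA replicate 1.

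Between LPS+HACA and control macrophages, 0 of the 10 genes were called, against 0.894% of all genes higher and 0.257% lower (1.15% in all). DESeq2 also called 0 of the 10, and 1 gene, Gpx1, had an unadjusted p under 0.05 in edgeR's quasi-likelihood test. With the replicate number as a block, 2 genes, Txnrd1 and Slc7a11, were called higher. The 2 LPS+HACA libraries lay above both controls for Nfe2l2, Keap1 and Slc7a11, and below both for Gpx1, against 23.4% and 23.1% of all genes. These 4 genes stood between the LPS and control libraries in both LPS+HACA libraries.

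**Figure D1:**
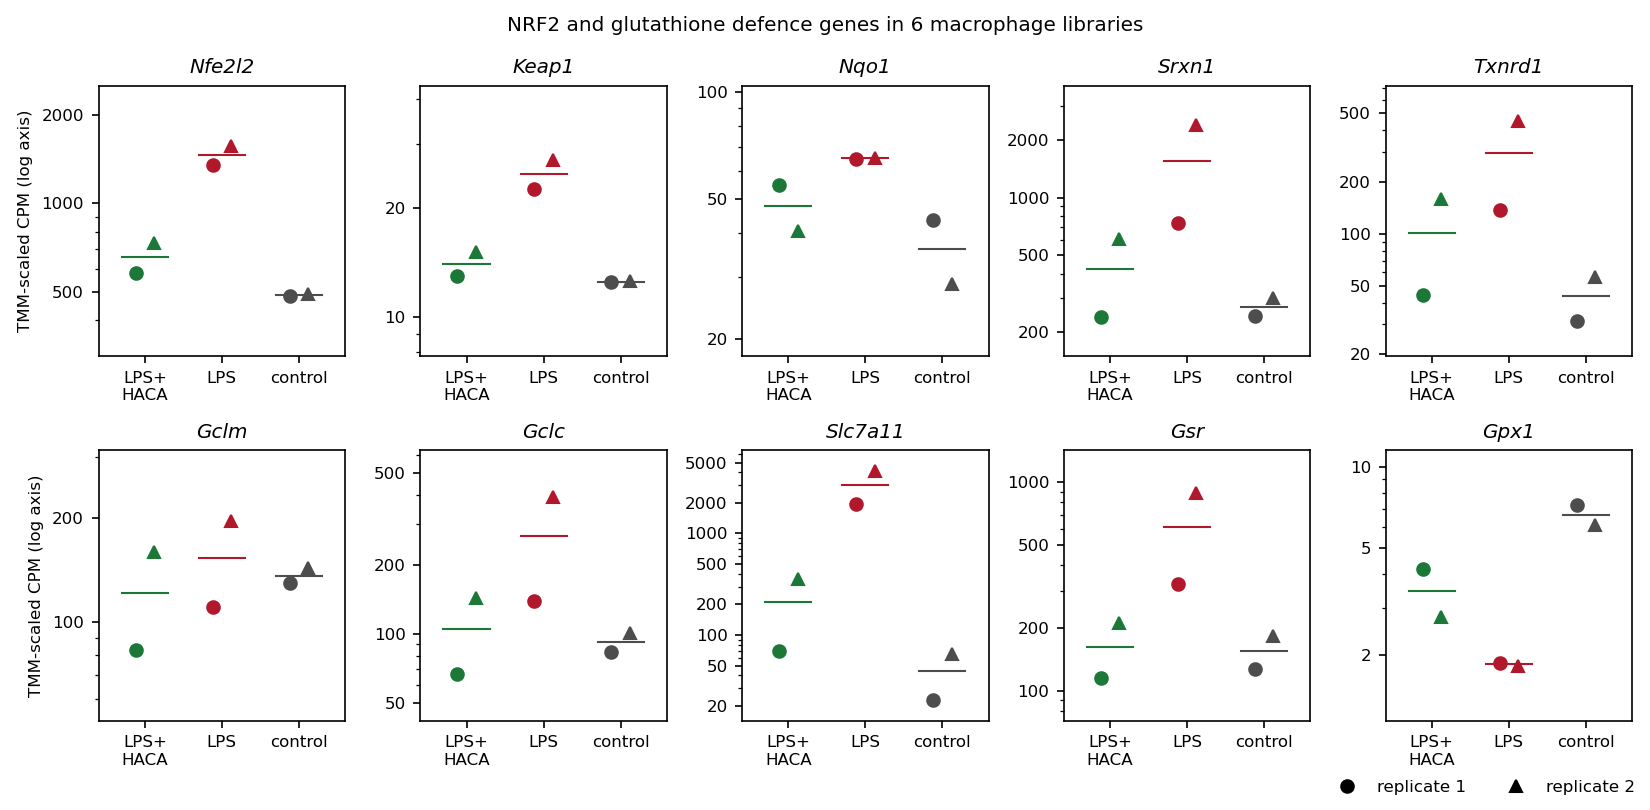
Level of each of the 10 genes in every library, in TMM-scaled CPM on log axes whose range differs between panels; circles are replicate 1, triangles replicate 2, and lines the mean of the 2 libraries of a group. Slc7a11 runs from 22.9 CPM in a control to 4120 CPM in an LPS library, whereas the 3 groups overlap for Gclm.

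**Figure D2:**
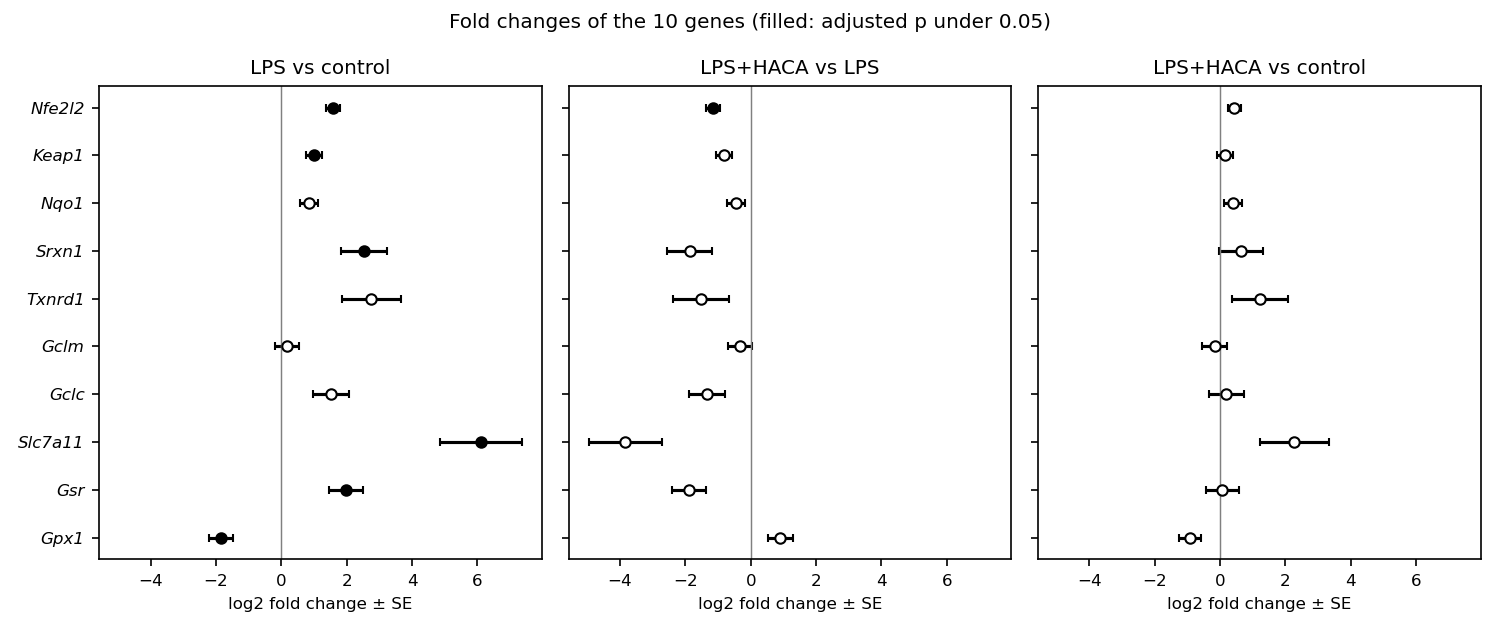
Fitted log2 fold change with its standard error for each gene in the 3 comparisons (edgeR, 6 libraries, filled points have an adjusted p under 0.05). In LPS against control 6 points are filled, in LPS+HACA against LPS only that of Nfe2l2, and in LPS+HACA against control none.

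Nfe2l2 lies at chr2:75675513-75704641 on the minus strand (GRCm38, as are all gene positions here). It had 581 and 733 CPM in the LPS+HACA libraries, 1352 and 1563 CPM in the LPS libraries, and 483 and 491 CPM in the controls. The 3 groups did not overlap, and LPS+HACA lay nearer to control than to LPS. Nfe2l2 was 2.99-fold higher in LPS than in control macrophages (log2 fold change 1.58 ± 0.21 SE, adjusted p = 0.0014). Relative to LPS it was 2.22-fold lower in LPS+HACA (log2 fold change -1.15 ± 0.21 SE, adjusted p = 0.0136), and its difference from control was 0.43 ± 0.20 (adjusted p = 0.478). The rise under LPS was called whichever single library was left out (adjusted p = 0.000712 to 0.0255). The fall under LPS+HACA was not called without LPS+HACA replicate 1 (log2 fold change -0.96, adjusted p = 0.124) nor when libraries were scaled to their totals (-0.50, adjusted p = 0.0867).

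Over all genes the log2 fold change had a median of -0.69 in LPS against control with library totals and -0.05 with TMM factors. It was 0.70 and 0.06 in LPS+HACA against LPS under the same pair of scalings. Measured from the median of all genes, Nfe2l2 stood 1.63 higher in LPS than in control with TMM factors and 1.62 higher with library totals. It stood at -1.21 and -1.20 in LPS+HACA against LPS. A change of scaling shifts the values of all genes by nearly the same amount, so each such pair agrees by construction. That agreement does not bear on the call lost with library totals. The transcript Nfe2l2-201, which is protein-coding, held 91.4% of the gene's counts.

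Keap1 (chr9:21229730-21239361, minus strand), which encodes the repressor of NRF2, had 13.0 and 15.1 CPM in the LPS+HACA libraries, 22.6 and 27.1 CPM in the LPS libraries, and 12.5 and 12.6 CPM in the controls. LPS+HACA libraries lay just above the controls and below both LPS libraries. In LPS it was 1.98-fold higher than in control (log2 fold change 0.99 ± 0.25 SE, adjusted p = 0.0194). Its value in LPS+HACA against LPS was -0.82 ± 0.24 (adjusted p = 0.0625). The rise in LPS was not called without control replicate 1 (adjusted p = 0.138) or 2 (0.128), nor with library totals (0.33, adjusted p = 0.288), nor on protein-coding transcripts alone (adjusted p = 0.0696). Keap1 is a gene with an uncertain count: only 28.9% of its exonic bases belong to a single transcript, and 510 of them overlap the antisense gene Gm16754, whose reads cannot be told apart without strand.

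The ratio of the regulator to its repressor was highest in LPS. Within a library, Nfe2l2 had 44.7 and 48.6 counts for each Keap1 count in LPS+HACA, 60.0 and 57.7 in LPS, and 38.7 and 39.1 in control. This ratio needs no scaling between libraries, and its 3 groups did not overlap. It was chosen after the values had been seen and was not tested.

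Nqo1 (chr8:107388225-107403206, minus strand) encodes a quinone reductase that is the usual readout of NRF2 activity. It had 54.5 and 40.5 CPM in the LPS+HACA libraries, 64.8 and 65.0 CPM in the LPS libraries, and 43.6 and 28.6 CPM in the controls. Both LPS libraries were above all others, while LPS+HACA and control overlapped. The log2 fold change was 0.85 ± 0.28 in LPS against control (adjusted p = 0.0513) and -0.45 ± 0.27 in LPS+HACA against LPS (adjusted p = 0.306). The first of these passed with DESeq2 (0.0263), RLE size factors (0.0471), limma-voom (0.0395) and no filter (0.0391). With library totals the last value was 0.20, so its direction depended on the scaling. Per Nfe2l2 count, Nqo1 had 0.0938 and 0.0552 counts in LPS+HACA, 0.0479 and 0.0416 in LPS, and 0.0902 and 0.0583 in control, lowest in the LPS libraries.

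Srxn1 (chr2:152105516-152111376, plus strand) encodes sulfiredoxin, which reactivates over-oxidised peroxiredoxins. It had 239 and 611 CPM in the LPS+HACA libraries, 741 and 2373 CPM in the LPS libraries, and 242 and 299 CPM in the controls. LPS libraries were the highest, and the LPS+HACA libraries spanned the controls. Srxn1 was 5.76-fold higher in LPS than in control (log2 fold change 2.53 ± 0.70 SE, adjusted p = 0.0473). The value for LPS+HACA against LPS was -1.87 ± 0.69 (adjusted p = 0.139). The rise rested on few libraries: without LPS replicate 2 it was 1.46 (adjusted p = 0.189), and it was not called without control replicate 1 (0.197) or 2 (0.167). It was not called with limma-voom either (adjusted p = 0.0929), nor on the main transcript or the protein-coding transcripts alone (0.0623 and 0.0667).

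Txnrd1 (chr10:82833951-82897712, plus strand), the cytosolic thioredoxin reductase, had 44.2 and 159 CPM in the LPS+HACA libraries, 137 and 450 CPM in the LPS libraries, and 31.2 and 56.0 CPM in the controls. Replicate 2 of LPS+HACA exceeded replicate 1 of LPS, so these groups overlapped. Within each replicate number LPS was highest and control lowest. The log2 fold change was 2.75 ± 0.90 in LPS against control (adjusted p = 0.0809), -1.53 ± 0.86 in LPS+HACA against LPS (adjusted p = 0.304) and 1.22 ± 0.86 in LPS+HACA against control (adjusted p = 0.729). None of these passed. With the replicate number as a block all 3 did (adjusted p = 3.27e-05, 0.00146 and 0.0424), and limma on log2(FPKM + 1) called the first (0.0342). In LPS against control the value passed without LPS+HACA replicate 1 (adjusted p = 0.0348) or 2 (0.0339), was 1.65 without LPS replicate 2, and passed with DESeq2 (0.0175). Transcripts annotated with a retained intron held 77.3% of the Txnrd1 counts, and protein-coding ones 18.5% to 25.9% per library, so most of the value was counted in transcripts not annotated as encoding the enzyme.

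Slc7a11 (chr3:49892526-50443614, minus strand) encodes the cystine-importing subunit of the transporter xCT. It had 69.3 and 356 CPM in the LPS+HACA libraries, 1951 and 4120 CPM in the LPS libraries, and 22.9 and 65.3 CPM in the controls. The groups did not overlap, with LPS highest and control lowest. Its fitted change in LPS against control was the largest of the 10 genes, at 68.9-fold (log2 fold change 6.11 ± 1.25 SE, adjusted p = 0.0295). The value was -3.84 ± 1.12 in LPS+HACA against LPS (adjusted p = 0.106) and 2.27 ± 1.05 in LPS+HACA against control (adjusted p = 0.548). The former passed with DESeq2 (adjusted p = 0.0032) and limma on log2(FPKM + 1) (0.0234). It also passed with no filter (8.27e-46) and the replicate number as a block (2.18e-05), but not with limma-voom (0.0908) or library totals (0.0835). The p-value without the filter is far smaller than 2 libraries per group that differ 5.14-fold and 2.11-fold can bear out, so that fit adds no support. The rise was not called without LPS replicate 1 (adjusted p = 0.111), LPS replicate 2 (0.156), control replicate 1 (0.102) or control replicate 2 (0.0768), while its value stayed between 5.47 and 7.06. Of the gene's 50-base stretches 1.47% also occur in other genes, and retained-intron transcripts held 19.1% of its counts.

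Slc7a11 counts, which are not corrected for gene length, exceeded Nfe2l2 counts in the LPS libraries alone. Per length Slc7a11 stayed below Nfe2l2 in those libraries, at 324.5 and 595.3 FPKM against 568.3 and 648 FPKM. There were 0.119 and 0.486 Slc7a11 counts per Nfe2l2 count in LPS+HACA, 1.44 and 2.64 in LPS, and 0.0474 and 0.133 in control. The LPS+HACA library with the higher ratio stood above both controls, and the other stood between them.

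Glutamate-cysteine ligase, the rate-limiting enzyme of glutathione synthesis, is made of a catalytic subunit (Gclc) and a modifier subunit (Gclm) that raises its activity. Gclc (chr9:77754535-77794485, plus strand) had 67.1 and 143 CPM in the LPS+HACA libraries, 140 and 393 CPM in the LPS libraries, and 83.5 and 101 CPM in the controls. Gclm (chr3:122245557-122270732, plus strand) had 82.8 and 159 CPM in the LPS+HACA libraries, 111 and 196 CPM in the LPS libraries, and 129 and 143 CPM in the controls. Both LPS libraries exceeded both controls for Gclc, while the 3 groups overlapped for Gclm.

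In LPS against control the log2 fold change was 1.53 ± 0.55 for Gclc (adjusted p = 0.0796) and 0.17 ± 0.37 for Gclm (adjusted p = 0.76). For LPS+HACA against LPS it was -1.34 ± 0.55 for Gclc (adjusted p = 0.155) and -0.34 ± 0.37 for Gclm (adjusted p = 0.565). The Gclm values turned positive in LPS+HACA against LPS, and negative in LPS against control, with library totals (0.33 and -0.50). Neither subunit passed edgeR's test on all 6 libraries in any comparison. With DESeq2, Gclc passed in LPS against control (adjusted p = 0.0124) and in LPS+HACA against LPS (0.0478). Without the filter on low counts it passed in both as well, with the limit given for Slc7a11. It also passed when LPS replicate 1 was left out (2.10, adjusted p = 0.0182 in LPS against control, and -1.90, 0.0384 in LPS+HACA against LPS) or, in LPS against control, without LPS+HACA replicate 1 (adjusted p = 0.0495). Without LPS replicate 2 its value in LPS against control was 0.60.

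The balance between the subunits differed between the groups. Gclm had 1.24 and 1.11 counts per Gclc count in LPS+HACA, 0.794 and 0.499 in LPS, and 1.55 and 1.41 in control. The groups did not overlap, and LPS was the group in which the modifier subunit had fewer counts than the catalytic one. Counts are not corrected for gene length. Per length Gclm was also slightly below Gclc in LPS+HACA, at 19.72 and 40 FPKM against 20.02 and 41.13 FPKM. The ratio is free of scaling between libraries, was picked after the values had been seen, and was not tested. Of Gclm's 50-base stretches 4.58% occur in other genes, and its exons overlap those of Gm17494 on the opposite strand.

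**Figure D3:**
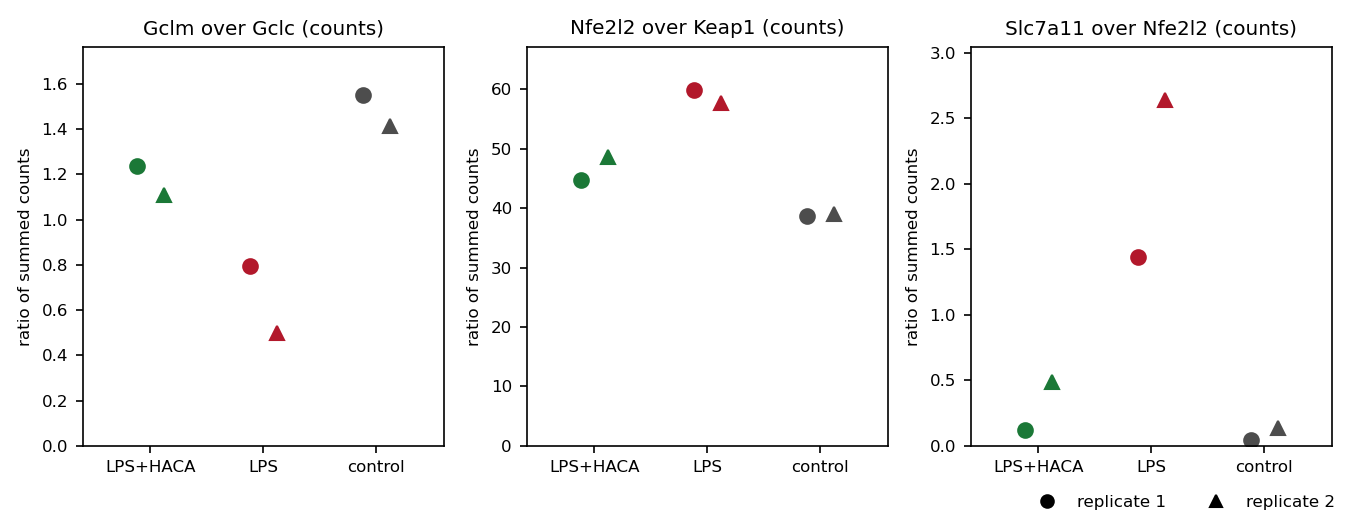
Ratios of summed counts within each library for Gclm over Gclc, Nfe2l2 over Keap1 and Slc7a11 over Nfe2l2, on linear axes starting at 0; circles are replicate 1 and triangles replicate 2. The first ratio is lowest in LPS at 0.794 and 0.499, and the other pair of ratios is highest there.

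Gsr (chr8:33652523-33698163, plus strand) encodes glutathione reductase, which returns oxidised glutathione to its reduced form with NADPH. It had 115 and 211 CPM in the LPS+HACA libraries, 326 and 889 CPM in the LPS libraries, and 128 and 183 CPM in the controls. Both LPS libraries were above all others, and the LPS+HACA libraries spanned the controls. Gsr was 3.91-fold higher in LPS than in control (log2 fold change 1.97 ± 0.52 SE, adjusted p = 0.0306). Its value was -1.90 ± 0.52 in LPS+HACA against LPS (adjusted p = 0.0587) and 0.07 ± 0.51 in LPS+HACA against control (adjusted p = 0.99). The former passed with DESeq2 (adjusted p = 0.00166), no filter (2.13e-10, with the limit given for Slc7a11) and the replicate number as a block (0.000406). It did not pass with limma-voom (0.0972), limma on log2(FPKM + 1) (0.0524) or library totals (0.0831). The rise was not called without LPS replicate 2 (1.07, adjusted p = 0.099), control replicate 1 (0.16) or control replicate 2 (0.0959). It was likewise not called with library totals (1.26, adjusted p = 0.0558), limma-voom (0.0598) or protein-coding transcripts alone (0.061).

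Gpx1 (chr9:108338903-108340343, plus strand) encodes the selenoenzyme that uses glutathione to reduce hydrogen peroxide. It had 4.19 and 2.77 CPM in the LPS+HACA libraries, 1.87 and 1.83 CPM in the LPS libraries, and 7.21 and 6.09 CPM in the controls, from 69 and 41, 19 and 19, and 115 and 92 counts. The 3 groups were separate, in the opposite order to Nfe2l2. Gpx1 was 3.58-fold lower in LPS than in control (log2 fold change -1.84 ± 0.37 SE, adjusted p = 0.00826). The value was 0.91 ± 0.37 in LPS+HACA against LPS (adjusted p = 0.144) and -0.93 ± 0.34 in LPS+HACA against control (adjusted p = 0.331). The fall was not called without control replicate 1 (-1.73, adjusted p = 0.0653), and with library totals the value for LPS+HACA against LPS passed (1.56, adjusted p = 0.0277). Only 32.1% of the gene's exonic bases belong to a single transcript, and a retained-intron transcript held 66.8% of its counts, so its low level is that of a small part of the gene.

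Levels of different genes were compared per length, with the deposited FPKM summed per gene. Nfe2l2 had the highest mean FPKM in all 3 groups, at 270 FPKM in LPS+HACA, 608 FPKM in LPS and 205 FPKM in control. It was not the highest in every library: in LPS replicate 2 Srxn1 reached 805 FPKM and Nfe2l2 648 FPKM. The order of these 2 genes also depended on the length used. Per kilobase found in a single transcript, Srxn1 had 106 and 270 CPM in LPS+HACA, 327 and 1049 CPM in LPS, and 107 and 132 CPM in control. On that scale Nfe2l2 had 158 and 200 CPM in LPS+HACA, 369 and 426 CPM in LPS, and 132 and 134 CPM in control, so the 2 genes overlapped in all 3 groups. In LPS+HACA macrophages Srxn1 (143 FPKM) came next, and its 2 libraries overlapped those of Txnrd1 (59.7 FPKM). Slc7a11, at 31.8 FPKM, overlapped Txnrd1, Gsr, Gclc, Gclm and Nqo1 (59.7 to 29.4 FPKM). Keap1 (9.21 FPKM) and Gpx1 (3.54 FPKM) were lowest, separate from the others and from each other.

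In LPS macrophages Srxn1 (534 FPKM) and Slc7a11 (460 FPKM) followed Nfe2l2 and overlapped each other, with Gsr at 226 FPKM. Keap1 (19.4 FPKM) and Gpx1 (1.95 FPKM) were again the lowest and separate. In control macrophages Srxn1 (94.6 FPKM), Gsr (58.3) and Gclm (33.9) followed Nfe2l2, each separate from the next. Gclc, Txnrd1 and Nqo1 (27.6 to 23.0 FPKM) then overlapped, as did Keap1, Gpx1 and Slc7a11 (7.55 to 6.08 FPKM). Slc7a11 thus had the third highest mean of the 10 in LPS and the lowest in control. Levels of Keap1, Txnrd1 and Gpx1 on this scale are affected by how few of their bases belong to a single transcript.

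The 2 libraries of a group differed widely for several of these genes. In LPS+HACA, 6 of the 10 genes were at least 1.5-fold higher in replicate 2 than in replicate 1, against 15% of all genes tested. In LPS the count was also 6, against 23.9%, and in control 2, against 13.7%. At least 2-fold higher were 4, 5 and 1 genes in the same groups, against 6.02%, 12.5% and 5.31% of all genes. Higher by any amount were 8, 9 and 8 genes, against 51.3%, 49.1% and 50.4%. Slc7a11 was 5.14-fold higher in replicate 2 of LPS+HACA, 2.11-fold in LPS and 2.85-fold in control, and Txnrd1 3.60-fold, 3.29-fold and 1.80-fold. Srxn1 was 2.55-fold, 3.21-fold and 1.24-fold higher in the same groups, while Nfe2l2 differed by 1.26-fold, 1.16-fold and 1.02-fold. Nqo1 and Gpx1 were not higher in replicate 2, apart from a ratio close to 1 for Nqo1 in LPS.

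Markers of other cell types also differed between the replicates. The summed level of the 4 detected of 6 neutrophil markers was 4.98 and 36.7 CPM in LPS+HACA, 13.8 and 64.2 CPM in LPS, and 7.47 and 39.8 CPM in control, replicate 1 before replicate 2, with all 4 higher in replicate 2 of each group; S100a9 and Ly6g were at 0. The 3 detected of 4 stromal markers summed to 49.4 and 1.35 CPM in LPS+HACA, 32.2 and 1.93 CPM in LPS, and 47.1 and 1.72 CPM in control, with Sparc at 0. Their part in the differences between replicates was not tested.

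**Figure D4:**
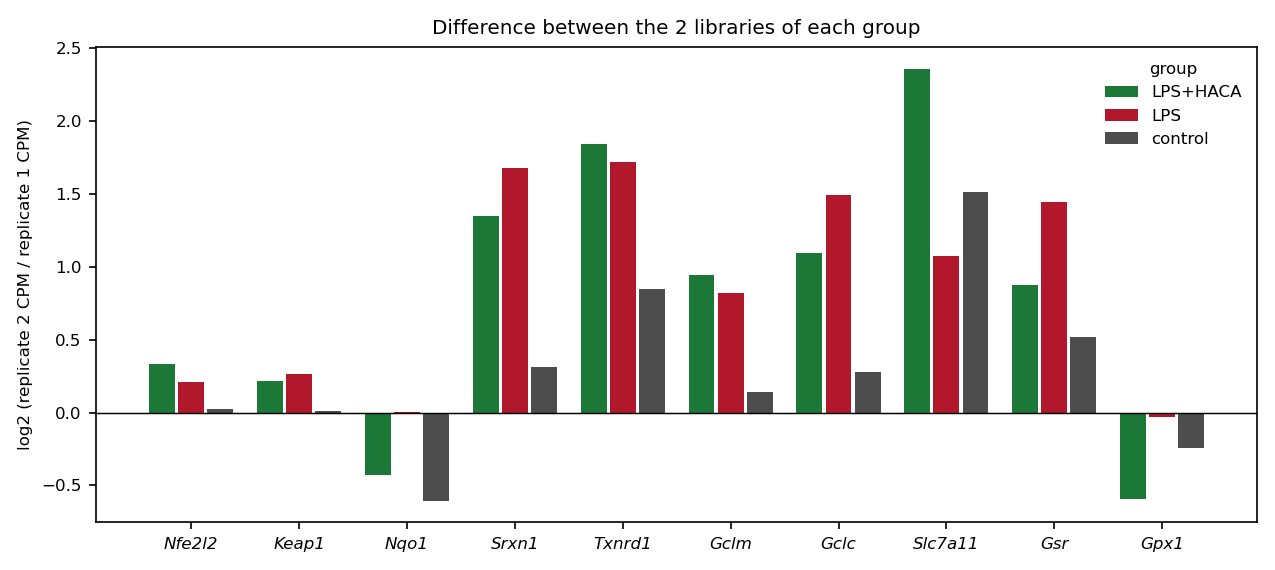
Log2 ratio of replicate 2 to replicate 1 for each gene and group; a bar above 0 means a higher level in replicate 2. The tallest bars in LPS+HACA are those of Slc7a11 and Txnrd1 and in LPS those of Txnrd1 and Srxn1, while those of Nfe2l2 and Keap1 stay close to 0.

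The genes whose profile over the 6 libraries lay nearest to that of Nfe2l2 were sought among 8699 genes with a mean of at least 5 CPM, by Euclidean distance between centred log2 CPM values. They were Gm5582 (distance 0.123), Ino80, which encodes a chromatin remodeller (0.150), and D630033A02Rik (0.193). Ino80 had 51.5 and 61.8 CPM in LPS+HACA, 113 and 148 CPM in LPS, and 42.2 and 42.3 CPM in control. Of the other genes of the 10 that reached this level, which Gpx1 did not, the closest was Keap1, at a distance of 0.607 and rank 408, and Slc7a11 was far away at 5.05 and rank 8487.

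Further genes of the pathway were taken from 6 lists. The background for their counts was 15.9% of all genes higher and 14.3% lower in LPS than in control, and 5.74% higher and 7.67% lower in LPS+HACA than in LPS. With library totals it was 8.28% and 29.9% in LPS against control, and 20.5% and 3.05% in LPS+HACA against LPS. Among genes that control NRF2, 6 of 10 tested rose and 1 fell in LPS against control, with a median log2 fold change of 1.06 (0.41 with library totals, where 4 rose and 2 fell). Between LPS+HACA and LPS, 0 rose and 2 fell in LPS+HACA, with a median of -0.75 (-0.09 with library totals, where 2 rose and 1 fell). The small MAF protein Maff, a partner of NRF2 on DNA, had 4.01 and 10.2 CPM in LPS+HACA, 22.0 and 63.8 CPM in LPS, and 1.38 and 2.58 CPM in control. Maff rose in LPS (log2 fold change 4.43 ± 0.73 SE, adjusted p = 0.00522) and was lower in LPS+HACA than in LPS (-2.59 ± 0.66, adjusted p = 0.0463). Its relative Mafk was also lower in LPS+HACA than in LPS (-1.04 ± 0.26, adjusted p = 0.0389).

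Sqstm1, the autophagy receptor that sequesters KEAP1, had 34.6 and 98.2 CPM in LPS+HACA, 88.7 and 304 CPM in LPS, and 18.3 and 25.0 CPM in control. It rose in LPS (3.18 ± 0.78, adjusted p = 0.0321). Bach1, which represses NRF2 targets at the same elements, had 235 and 273 CPM in LPS+HACA, 156 and 170 CPM in LPS, and 252 and 270 CPM in control, and fell in LPS (-0.68 ± 0.20, adjusted p = 0.0345). The calls of Sqstm1 and Bach1 were lost without either control library. That of Sqstm1 was also lost without LPS replicate 2, and that of Bach1 without LPS replicate 1 or either LPS+HACA library.

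Of 13 tested genes of glutathione synthesis, transport and turnover, 4 rose and 0 fell in LPS against control (median 0.63, or -0.05 with library totals, where 4 rose and 2 fell), and 0 rose and 1 fell in LPS+HACA against LPS (median -0.23, or 0.40 with library totals, where 2 rose and 0 fell). Both of the risen genes named here act in glutathione turnover. Chac1, a glutathione-degrading cyclotransferase, had 13.6 and 52.6 CPM in LPS+HACA, 40.0 and 130 CPM in LPS, and 0.565 and 0.661 CPM in control. Its value was 7.10 ± 1.09 in LPS against control (adjusted p = 0.00766) and did not pass without control replicate 1 (0.0627) or 2 (0.0639). Ggct, the gamma-glutamyl cyclotransferase, had 6.92 and 8.52 CPM in LPS+HACA, 24.7 and 17.1 CPM in LPS, and 2.26 and 3.84 CPM in control. It rose in LPS (2.78 ± 0.37, adjusted p = 0.00145) and was lower in LPS+HACA than in LPS (-1.44 ± 0.35, adjusted p = 0.0333).

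Among enzymes that use glutathione, more fell than rose in LPS. Of 18 tested, 4 rose and 7 fell against control (median -0.98, or -1.59 with library totals, where 0 rose and 10 fell), and 1 rose and 1 fell in LPS+HACA against LPS (median 0.53, or 1.17 with library totals, where 8 rose and 0 fell). Among those that fell were Mgst1, a membrane glutathione transferase (-1.19 ± 0.33, adjusted p = 0.0292), and Gpx4, the peroxidase that reduces lipid peroxides (-1.16 ± 0.34, adjusted p = 0.0357). The 7 genes that fell were low, with at most 7.54 CPM in any library. Mgst1 had 4.01 and 5.82 CPM in LPS+HACA, 3.05 and 3.37 CPM in LPS, and 7.15 and 7.54 CPM in control. Gpx4 had 3.10 and 4.19 CPM in LPS+HACA, 2.46 and 2.89 CPM in LPS, and 5.90 and 6.09 CPM in control. On the main transcript alone Mgst1 did not pass (adjusted p = 0.0717). Esd, which completes formaldehyde removal by glutathione, and the glutaredoxin Glrx were called higher in LPS (1.15 ± 0.30, adjusted p = 0.0215, and 1.01 ± 0.28, adjusted p = 0.0282), though not with library totals (0.194 and 0.351). Glrx was lower in LPS+HACA than in LPS (-1.12 ± 0.28, adjusted p = 0.0372).

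In the thioredoxin and peroxiredoxin list, 3 of 15 rose and 3 fell in LPS against control (median 0.21, or -0.47 with library totals, where 2 rose and 4 fell), and 1 rose and 2 fell in LPS+HACA against LPS (median -0.24, or 0.38 with library totals, where 2 rose and 1 fell). Prdx5, a peroxiredoxin, had 12.1 and 23.5 CPM in LPS+HACA, 56.7 and 122 CPM in LPS, and 3.89 and 4.96 CPM in control. It rose in LPS (4.33 ± 0.49, adjusted p = 0.0008) and was lower in LPS+HACA than in LPS (-2.33 ± 0.45, adjusted p = 0.0168). Txn1, thioredoxin itself, had 348 and 374 CPM in LPS+HACA, 709 and 1010 CPM in LPS, and 314 and 321 CPM in control, with 1.44 ± 0.23 in LPS against control (adjusted p = 0.00299) and -1.25 ± 0.23 in LPS+HACA against LPS (adjusted p = 0.0138).

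Sesn1, a sestrin, had the opposite profile: 24.7 and 17.0 CPM in LPS+HACA, 5.02 and 7.51 CPM in LPS, and 30.4 and 27.1 CPM in control. It fell in LPS (-2.19 ± 0.32, adjusted p = 0.0021) and was higher in LPS+HACA than in LPS (1.73 ± 0.31, adjusted p = 0.0142). Msrb1, a methionine sulfoxide reductase, fell in LPS (-1.28 ± 0.36, adjusted p = 0.0299).

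Of 9 genes that supply NADPH, 1 rose and 2 fell in LPS against control (median 0.19, or -0.47 with library totals, where 1 rose and 3 fell), and 0 were called in LPS+HACA against LPS with TMM factors (median -0.02, or 0.67 with library totals, where 3 rose). The counts in LPS against control are close to the background. Idh1, a cytosolic isocitrate dehydrogenase, was among those that fell (-1.12 ± 0.34, adjusted p = 0.0406). Of 16 other NRF2 targets, 1 rose and 1 fell in LPS against control (median -0.42, or -1.07 with library totals, where 0 rose and 9 fell), and 0 were called in LPS+HACA against LPS (median 0.13, or 0.81 with library totals, where 4 rose). In LPS against control both counts lie under the background with TMM factors. With library totals the 9 of 16 that fell lie above the 29.9% of all genes. Fth1, the ferritin heavy chain, rose (1.44 ± 0.40, adjusted p = 0.029, but 0.124 with library totals), and Aldh2, a mitochondrial aldehyde dehydrogenase, fell (-1.49 ± 0.22, adjusted p = 0.00216). Hmox1, the haem oxygenase often used as an NRF2 readout and named here after its values were seen, had 170 and 429 CPM in LPS+HACA, 268 and 981 CPM in LPS, and 323 and 496 CPM in control, and did not pass in LPS against control (0.61 ± 0.74, adjusted p = 0.587, and -0.11 with library totals). Between LPS+HACA and control 0 of the 81 tested genes of the 6 lists were called by edgeR's quasi-likelihood test, where 11 had an unadjusted p under 0.05 (9 higher and 2 lower in LPS+HACA). DESeq2 called 4 higher (Chac1, Ggct, Nfe2l1 and Prdx5) and 1 lower (Aldh2), and edgeR without the filter called 7 higher. Leaving out LPS replicate 1 or 2 gave 2 higher (Nfe2l1 and Prdx5), and leaving out LPS+HACA replicate 1 gave 1 (Chac1). These genes are named after their values were seen.

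The calls of Maff, Ggct, Prdx5, Txn1, Sesn1 and Aldh2 in LPS against control were made whichever library was left out, and those of the other genes named from the lists were each lost in at least 1 such fit (adjusted p up to 0.23). The LPS+HACA against LPS calls of Maff, Mafk, Ggct, Glrx, Prdx5, Txn1 and Sesn1 were all lost without LPS+HACA replicate 1. Leaving out LPS+HACA replicate 2 lost those of Maff, Mafk, Ggct, Glrx and Txn1. Leaving out either control lost those of Maff, Mafk, Ggct and Glrx. The calls of Maff and Mafk were also lost without LPS replicate 2, and the calls of Ggct and Glrx without LPS replicate 1. With library totals those of Mafk, Ggct, Glrx and Txn1 were also lost (adjusted p = 0.0595 to 0.291). Limma on log2(FPKM + 1) lost those of Maff, Mafk, Ggct and Glrx (0.053 to 0.0775). The main transcript alone lost Mafk (0.0583) and Glrx (0.0504), and protein-coding transcripts alone lost Maff (0.0771), Mafk (0.0711) and Ggct (0.162). In LPS against control, limma on log2(FPKM + 1) did not call Glrx (0.0569) or Idh1 (0.103). With limma-voom, Sqstm1 and Chac1 in LPS against control (0.0634 and 0.0564) and Maff in LPS+HACA against LPS (0.0544) were not called.

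**Figure D5:**
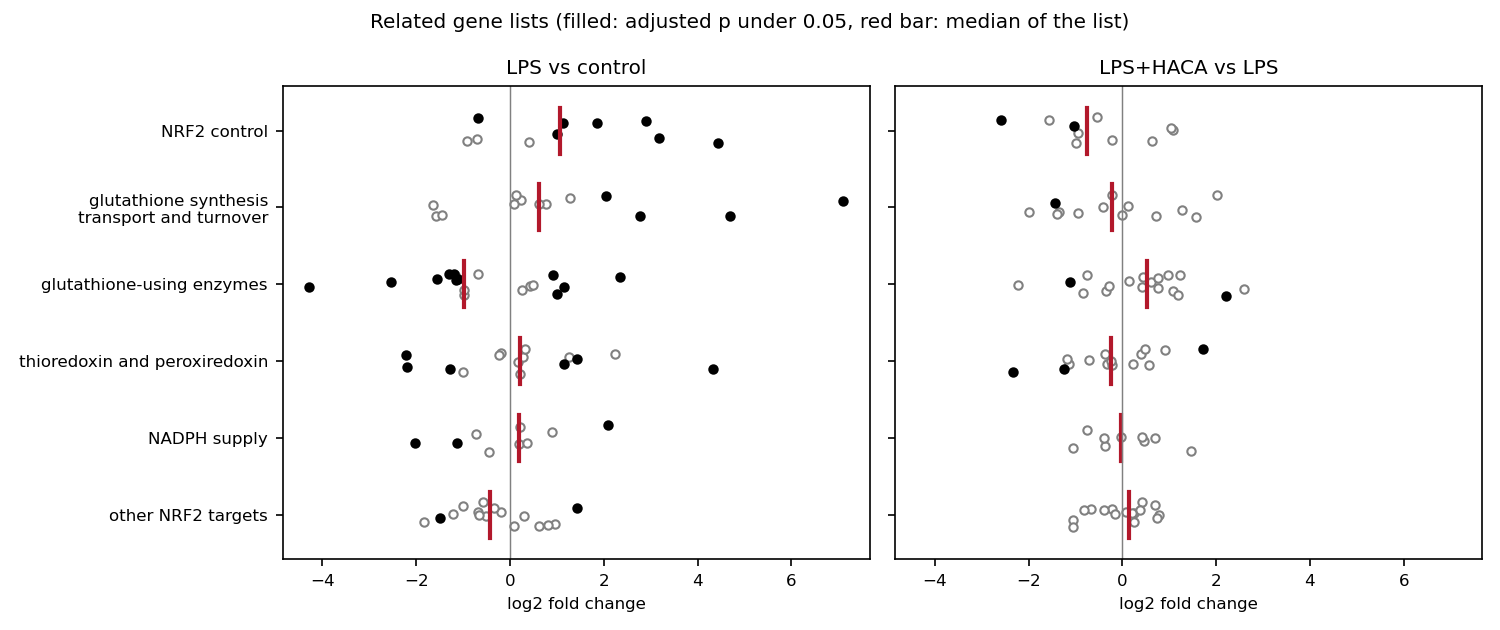
Log2 fold changes of the tested genes in the 6 related lists, in LPS against control (left) and LPS+HACA against LPS (right); filled points have an adjusted p under 0.05 and the red bar is the list median. The list of genes controlling NRF2 has its median at 1.06 on the left and -0.75 on the right, and that of enzymes using glutathione at -0.98 and 0.53.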

How the data were processed

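Per the labels' protocols, RNA of the macrophages was selected on poly-A beads and made into TruSeq libraries, 2 for each of 3 groups. The authors deposited raw counts per transcript and FPKM per transcript, per the file headers. STAR 2.5.4b, Trim Galore and CASAVA are among the tools in the submitters' processing notes, beside DESeq2, edgeR and limma and the builds GRCm38 and GRCh38, with no roles. No source used here names the counting program or its use of strand.

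Counts were summed per gene with GENCODE annotation of GRCm38, which held 141524 of the 142647 transcripts. The 1123 others held at most 0.115% of a library. Transcripts of the 10 genes with no base of their own held 0 to 17 counts over all libraries, so reads shared between transcripts appear mostly uncounted and genes with overlapping isoforms were measured over part of their exons. Genes were filtered with filterByExpr and libraries scaled with TMM. All 6 libraries entered a robust quasi-likelihood fit in edgeR 4.0.16 with group as its only term (R 4.3.3, 3 residual degrees of freedom), with Benjamini-Hochberg adjustment over all genes tested and calls at 0.05. SEs were obtained by dividing the size of the log2 fold change by the root of the F statistic. CPM was computed on the TMM-scaled library sizes.

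The 10 genes, the related lists and the tests were chosen with earlier results of these data known. Named from each list were up to 2 called genes per direction and comparison with the largest log2 fold change, a mean of at least 5 CPM in the higher group and groups that did not overlap. Of the genes nearest to Nfe2l2 the 3 closest were named, from log2(CPM + 0.01). Alternatives were RLE size factors (of DESeq2), library totals, omission of misc_RNA and rRNA genes, no filter, DESeq2 1.42.0, limma 3.58.1 (voom, and log2(FPKM + 1)), the main transcript of each gene, the replicate number as a block and each library left out. Use of protein-coding transcripts alone was added after seeing the data. Replicates of a group differed beyond counting noise (chi-square per degree of freedom 25.6 to 58.3), so none was counted as a repeat of another.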

Additional observations from a re-analysis of the deposited data

How the results depend on the processing

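Across 16 alternatives, 403 of the values of the 10 genes kept direction and side of the threshold, 42 newly passed the test, 23 no longer passed and 12 changed sign; the causes were not tested beyond what each alternative's construction gives (fewer genes, libraries or transcripts). Of the 10 genes, 5 were called higher in LPS than in control. That count was 8 with DESeq2, 8 without a filter, 3 with library totals, 2 on protein-coding transcripts alone and 1 to 7 with a library left out, and the 1 called lower became 0 to 1. Between LPS+HACA and LPS 1 was called lower in LPS+HACA, and the count was 6 with DESeq2, 6 without a filter, 3 with limma on FPKM, 0 with library totals (where 1 was called higher) and 0 to 4 with a library left out. Against control, 2 were called higher in LPS+HACA without a filter and 0 otherwise, apart from the block. Without the filter some adjusted p-values of edgeR's quasi-likelihood test were far smaller than 2 libraries per group can bear out. An example is 8.27e-46 for Slc7a11 in LPS+HACA against LPS, where the main fit gave 0.106. Counts from the fit without a filter therefore carry little weight.

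Over all genes, 2715 were called higher and 2442 lower in LPS than in control. The counts were 1417 and 5111 with library totals, 1447 and 1241 on protein-coding transcripts, and 1190 to 3024 and 916 to 2817 with a library left out. The comparison of LPS+HACA with LPS had 983 higher and 1312 lower, against 3501 and 522 with library totals, 407 and 638 on protein-coding transcripts, 1845 higher without a filter, and 152 to 1617 and 216 to 1793 with a library left out. The comparison of LPS+HACA with control had 153 higher and 44 lower. The counts were 467 and 199 with DESeq2, 661 and 250 without a filter, 55 and 12 on protein-coding transcripts, 77 higher with limma on FPKM, 24 lower with library totals, 74 lower with limma-voom, and 0 to 420 and 0 to 186 with a library left out.

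Replicate numbers 1 and 2 recur in the labels of each group without a stated meaning, so with only 2 numbers the pairing was not established. Deviations from the group means correlated at 0.308 between LPS and control, 0.498 between LPS+HACA and LPS and 0.509 between LPS+HACA and control over 17113 genes. With the number as a replicate block, 8 of the 10 genes were called higher in LPS than in control, 7 lower in LPS+HACA than in LPS, and 2 (Txnrd1 and Slc7a11) higher in LPS+HACA than in control. Over all genes the block gave 1955 higher and 2356 lower in LPS+HACA than in LPS, and 628 and 307 in LPS+HACA against control. Of the 81 tested genes of the 6 related lists it called 24 higher and 20 lower in LPS than in control (19 and 14 without it), 9 and 20 in LPS+HACA against LPS (2 and 6), and 6 and 1 in LPS+HACA against control (0 and 0). In LPS+HACA against LPS these included 2 higher and 5 lower in the list of genes controlling NRF2, and 4 and 3 among the enzymes using glutathione. The block also called Nqo1 in LPS against control (adjusted p = 0.00705) and Gclc there and in LPS+HACA against LPS (0.00272 and 0.00633).

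No value that changed sign had passed the test. With library totals Gclm was -0.51 in LPS against control, and in LPS+HACA against LPS Gclm was 0.33 and Nqo1 0.20. With limma on FPKM, Gsr was -0.0031 in LPS+HACA against control. With a library left out, Gclm lay between -0.29 (without LPS replicate 2) and 0.53 in LPS against control, between -0.90 and 0.13 in LPS+HACA against LPS, where it was positive without LPS replicate 2 and, at 0.08, without LPS+HACA replicate 1, and between -0.71 and 0.25 in LPS+HACA against control. In that last comparison Srxn1 lay between -0.17 and 1.20, Gclc between -0.46 and 0.66 and Gsr between -0.43 and 0.46 (-0.18 without control replicate 1), with the lowest values without LPS+HACA replicate 2. Depth limits Gpx1 and Keap1, the 2 genes with the fewest counts of the 10.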
